A study of Hordeum vulgare with 30 samples.

Results

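Of the 35826 genes counted in roots of 5 barley varieties, 44 lay at a level in the variety Infinity that was set apart from all 4 other varieties, with and without waterlogging. They were selected on their measured levels. Counts were scaled to counts per 1000000 of the library total (CPM), and the 3 libraries of each group were averaged. A gene had to average at least 1 CPM in all 10 groups, which 17173 genes did. Both Infinity means then had to be at least 2 times the highest of the other 8 group means, which 22 genes met, or at most 0.5 times the lowest of them, which another 22 genes met. The ratio of the Infinity mean nearest to the other groups to the other group nearest to Infinity, taken so that it exceeds 1, is called the margin here. Because these levels chose the genes, the levels of Infinity against the other varieties are described without a test, and tests are given only for the response to waterlogging. The rule did not use the difference between treatments directly, but it asks both treatments to stay on one side of all other groups, so a gene with a large response tends to fail it.

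The study asked how the root transcriptome of barley varieties responds to waterlogging. The 5 waterlogged groups stood in water for 24 h when the plants were 10 days old, and 5 groups of the same varieties and age were watered normally and served as controls. Infinity and Regina are winter barleys with 2-row ears, Passport and Pilastro are winter barleys with 6-row ears, and Golden Promise is a spring barley with 2-row ears. Each library was made from the pooled roots of 3 plants of a variety, and the experiment was run independently 3 times, giving 3 libraries per group and 30 in all. No group carried a transgene or mutation named in the labels, where variety and treatment are the only listed differences. The study's methods add the origin of the seed, which goes with variety. Infinity and Golden Promise came from Teagasc, and Passport, Pilastro and Regina from the AGOUEB population. Infinity is a single winter 2-row variety, and its levels cannot be told apart from those of any other trait that it alone has among these 5.

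A barley variety is an inbred line, so its plants share nearly all of their alleles and each variety can keep its own steady level of a given transcript. Waterlogging fills the soil pores with water and starves roots of oxygen. Roots then turn from respiration to ethanol fermentation, and genes for alcohol dehydrogenase, pyruvate decarboxylase and haemoglobin are classic markers of that switch.

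Library totals ran between 9601984 and 12349136 counts, and those of the 6 Infinity libraries between 9601984 and 11260560. The roots were checked against marker genes picked by their descriptions. The small chain of ribulose bisphosphate carboxylase, a leaf protein, had at most 3.85 CPM in any library, and protochlorophyllide reductase, another leaf protein, was at 0 in 19 of 30 libraries. Aquaporins, the water channels, summed to between 797.7 and 3644 CPM and nitrate transporters to between 303.8 and 1447 CPM. Of the other leaf markers, the activase of the same carboxylase had 0.411 to 9.26 CPM and chlorophyll synthase 26.6 to 41.2 CPM, and of the other root markers the ammonium transporter had 0.622 to 2.00 CPM. Roots are a mixture of cell types, and in such bulk samples fewer cells of a type and less RNA per cell cannot be told apart.

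The margins were mostly modest, with a few genes far outside the range of the other varieties. Among the 22 genes higher in Infinity the margin ran from 2.00 to 4.08 with a median of 2.32, and 2 of them exceeded 3. Among the 22 genes lower in Infinity it ran from 2.02 to 15.2 with a median of 2.45, and 6 exceeded 3. The higher genes summed to 1612 CPM in waterlogged and 1403 CPM in control Infinity roots, against 287.0 to 433.3 CPM in the other 8 groups, and 2 genes with over 100 CPM carried most of that sum. The lower genes summed to 216.4 CPM in waterlogged and 203.1 CPM in control Infinity roots, against 946.1 to 1045 CPM elsewhere. All 6 Infinity libraries lay outside the range of the 24 other libraries in 21 of the 22 higher and 20 of the 22 lower genes. Over all 17173 genes, 0.402% had every Infinity library above and 0.338% every Infinity library below all others, but the selection used this contrast and nothing is read from these shares.

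**Figure D1:**
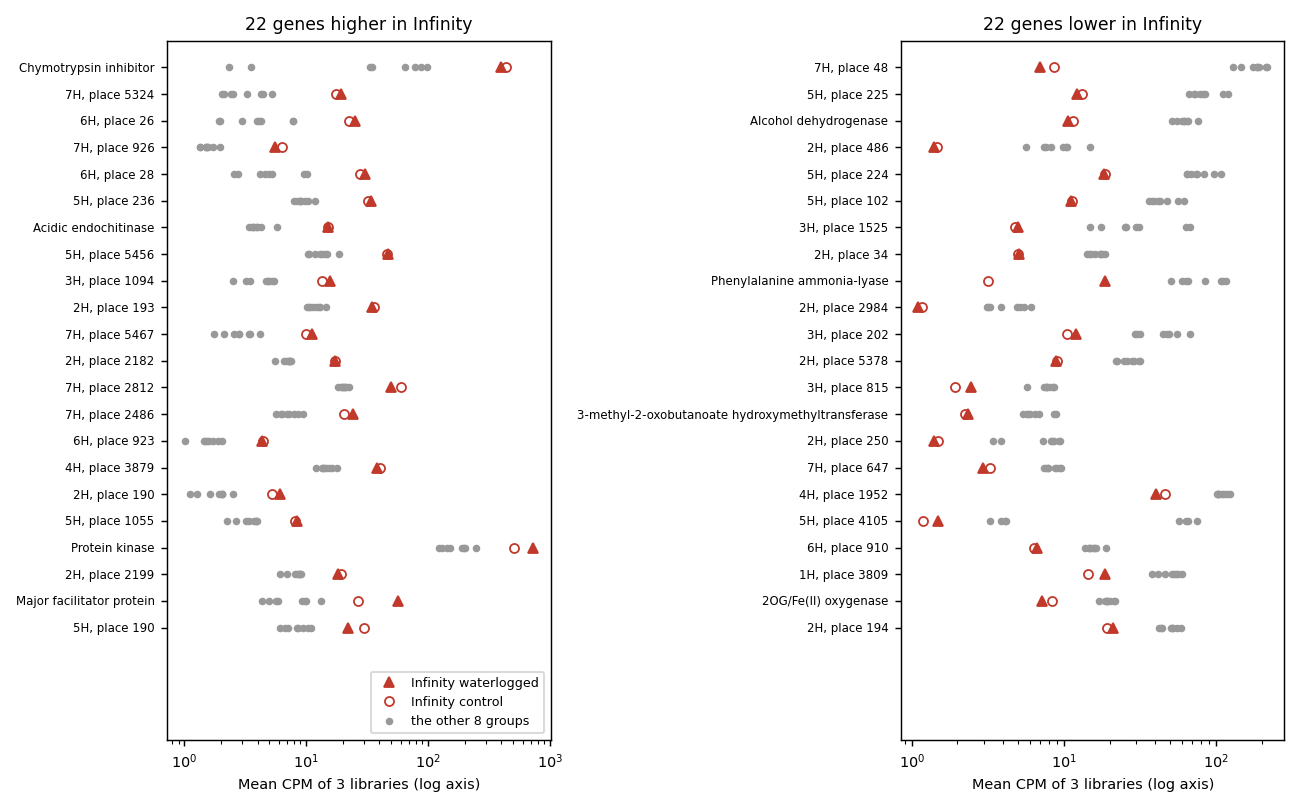
Mean CPM of 3 libraries on a log axis for the 22 genes higher (left) and the 22 genes lower (right) in Infinity, sorted by margin with the largest on top; triangles are Infinity waterlogged, open circles Infinity control and grey dots the other 8 groups. The gene at place 48 of chromosome 7H stands farthest from its grey dots, with a margin of 15.2, and the chymotrypsin inhibitor has the widest spread of grey dots.

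Descriptions were at hand for 8 of the 44 genes. They come from the study's supplementary tables, which as used here describe 4768 genes, so an undescribed gene is not one of unknown function. Places on a chromosome are counted here along the gene numbers in the identifiers, which follow the chromosome in the Morex V3 annotation. Of the described genes, 4 were higher in Infinity. The largest margin, 4.08, belonged to the chymotrypsin inhibitor gene HORVU.MOREX.r3.1HG0004280, whose name stands for small proteins that block serine proteases. It had 368, 358 and 474 CPM in waterlogged Infinity roots and 425, 333 and 544 CPM in control Infinity roots, against a lowest of 0.85, a median of 37.3 and a highest of 174 CPM over the 24 other libraries. No Infinity library overlapped with the others, yet the other varieties were themselves far apart. Regina averaged 2.33 ± 1.46 CPM waterlogged and 3.54 ± 0.111 CPM in control (SD, n = 3 each), and Pilastro 78.9 ± 76.6 CPM waterlogged and 98.1 ± 87.8 CPM in control (SD, n = 3 each).

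The protein kinase gene HORVU.MOREX.r3.2HG0098680, of the family of enzymes that attach phosphate to proteins, was the higher gene with the most CPM, a measure that is not corrected for gene length. Waterlogged Infinity roots had 747, 602 and 839 CPM and control Infinity roots 490, 412 and 627 CPM, against 99.6, 166 and 293 CPM as the lowest, median and highest of the other libraries. Its margin was 2.04, and the groups did not overlap. The acidic endochitinase gene HORVU.MOREX.r3.3HG0300110, whose product cuts chitin such as that of fungal cell walls, had 9.77, 20.5 and 15.0 CPM in waterlogged and 14.3, 16.9 and 13.8 CPM in control Infinity roots. The other libraries ran from 2.89 to 6.37 CPM around a median of 3.71 CPM, below every Infinity library, and the margin was 2.60. The Major facilitator superfamily gene HORVU.MOREX.r3.4HG0403130, which belongs to a large class of membrane carriers for small solutes, had 79.4, 60.5 and 30.3 CPM in waterlogged and 30.1, 21.4 and 29.0 CPM in control Infinity roots. Its other libraries had a lowest of 3.01, a median of 7.22 and a highest of 17.7 CPM. This gene met the rule narrowly, with a margin of 2.02, although its Infinity libraries were clear of all others.

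The other 4 described genes were lower in Infinity. The alcohol dehydrogenase gene HORVU.MOREX.r3.6HG0601820 carries the name of the enzyme that makes ethanol in the last step of fermentation. It had 12.1, 10.8 and 9.15 CPM in waterlogged and 9.99, 10.8 and 13.4 CPM in control Infinity roots, against 43.3, 60.8 and 88.6 CPM as the lowest, median and highest elsewhere. Its margin of 4.54 was the third largest among the lower genes, and the other 4 varieties lay close together, within 1.48-fold of each other by group mean. Phenylalanine ammonia-lyase starts the phenylpropanoid pathway, which supplies lignin, suberin and flavonoids, and its gene HORVU.MOREX.r3.2HG0132820 varied widely between libraries. Waterlogged Infinity roots had 6.13, 17.5 and 32.5 CPM and control Infinity roots 4.67, 2.08 and 2.80 CPM, against a lowest of 26.2, a median of 69.1 and a highest of 215 CPM elsewhere. One waterlogged Infinity library thus reached into the range of the other varieties, and the margin of 2.69 was set by the waterlogged group. It was 4.26 without waterlogged library 3 of Infinity and 1.80, short of the rule, without control library 3 of Regina.

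The gene HORVU.MOREX.r3.7HG0635120, described as 3-methyl-2-oxobutanoate hydroxymethyltransferase, an enzyme on the route to pantothenate and coenzyme A, had 2.40, 2.29 and 2.31 CPM in waterlogged and 2.02, 2.19 and 2.53 CPM in control Infinity roots. The other libraries ran from 4.50 to 9.69 CPM with a median of 6.59 CPM, and the margin was 2.31. The 2-oxoglutarate (2OG) and Fe(II)-dependent oxygenase gene HORVU.MOREX.r3.5HG0536470, of a class that uses molecular oxygen to modify hormones and secondary metabolites, had 5.51, 7.16 and 8.97 CPM in waterlogged and 6.87, 9.16 and 9.21 CPM in control Infinity roots. Elsewhere it ran from 15.6 to 27.9 CPM with a median of 18.8 CPM, and its margin was 2.02. Neither gene overlapped between Infinity and the other varieties. Besides phenylalanine ammonia-lyase, 4 described genes missed the 2-fold rule when a single library was left out. The kinase gene did so without control library 3 of Infinity (lowest margin 1.81) or waterlogged library 2 of Regina, and the Major facilitator gene without control library 1 or 3 of Infinity or waterlogged library 2 (lowest margin 1.83) or 3 of Regina. The oxygenase gene did so without control library 1 of Infinity (lowest margin 1.85) or control library 1 of Pilastro, and the hydroxymethyltransferase gene without waterlogged library 1 of Passport (1.98).

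**Figure D2:**
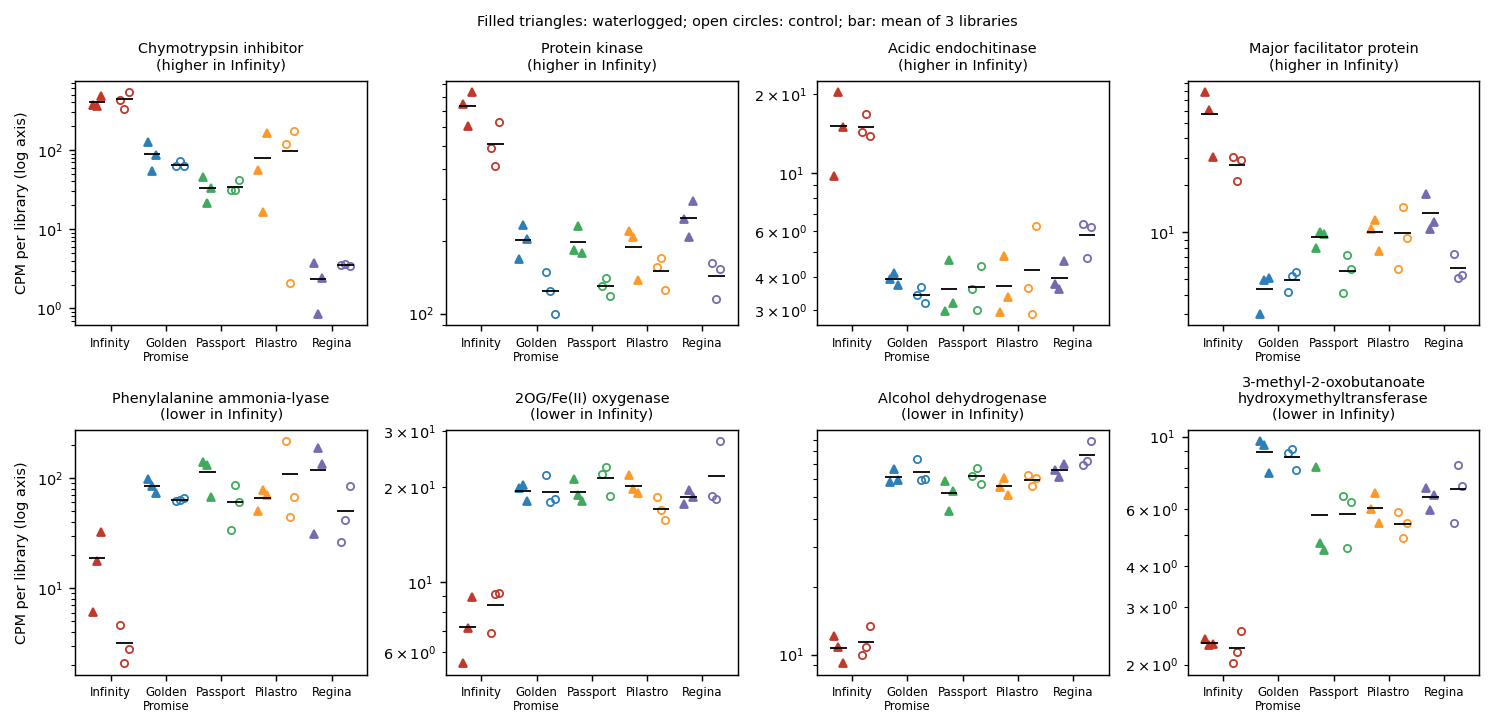
CPM of each library on a log axis for the 8 described genes, with waterlogged libraries as filled triangles left of control libraries as open circles in each variety and a bar at the mean of 3 libraries. Infinity stands above the other varieties in the top row and below them in the bottom row, and only phenylalanine ammonia-lyase has an Infinity library, at 32.5 CPM, within the range of the others.

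The other 36 genes had no description at hand, and 4 of them are named by their margin. HORVU.MOREX.r3.7HG0635050 showed the widest separation of all 44. It had 6.84, 8.35 and 5.77 CPM in waterlogged and 8.79, 9.06 and 7.85 CPM in control Infinity roots, against a lowest of 120, a median of 187 and a highest of 248 CPM elsewhere. Every Infinity library lay below 10 CPM and every other library above 100 CPM. HORVU.MOREX.r3.5HG0424720 had 8.00, 13.2 and 15.7 CPM in waterlogged and 12.7, 12.6 and 14.3 CPM in control Infinity roots, and 58.8, 79.5 and 137 CPM as the lowest, median and highest elsewhere, a margin of 5.04. Of the higher genes, HORVU.MOREX.r3.7HG0749700 had 22.5, 18.1 and 17.2 CPM in waterlogged and 19.3, 14.5 and 18.9 CPM in control Infinity roots, against 1.45, 2.91 and 5.55 CPM elsewhere, a margin of 3.33. HORVU.MOREX.r3.6HG0538660 had 20.3, 35.6 and 20.3 CPM in waterlogged and 21.4, 23.2 and 22.2 CPM in control Infinity roots, against 0.822, 3.59 and 11.8 CPM elsewhere, a margin of 2.84. None of these 4 genes overlapped between Infinity and the other varieties. The lowest Infinity group mean among the 44 was 1.11 CPM and the highest 729 CPM.

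The rule fixes the place of Infinity but not how the groups of the other 4 varieties compare. The highest of their 8 group means exceeded the lowest by a median of 1.80-fold for the higher and 1.66-fold for the lower genes, beside 1.56-fold for all 17173 genes at 1 CPM. In 16 of the 44 genes it did so by more than 2-fold and in 5 by more than 4-fold. The 8 means hold both treatments, so this ratio mixes differences between varieties with responses to waterlogging. For phenylalanine ammonia-lyase both extremes were in Regina, at 50.4 CPM in control and 117 CPM waterlogged. Which variety came nearest to Infinity differed with the direction. For the higher genes it was Regina in 8, Passport in 7, Golden Promise in 6 and Pilastro in 1. For the lower genes it was Pilastro in 10, Golden Promise in 7, Passport in 3 and Regina in 2. Within groups, the members varied somewhat more than genes in general, with a median coefficient of variation of 14.9% against 13.1% in Infinity groups and 16.6% against 13.8% in the other groups. Members and all genes were not matched for level, and the part of low counts in this was not tested.

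One lower gene fell into separate levels among the other varieties as well. The undescribed gene at place 4105 of 5H averaged 1.49 ± 1.73 CPM in waterlogged and 1.19 ± 1.69 CPM in control Infinity roots. It averaged 66.1 ± 15.6 and 75.5 ± 4.22 CPM in waterlogged Golden Promise and Pilastro, but 3.89 ± 3.70 and 4.19 ± 5.54 CPM in waterlogged Passport and Regina (SD, n = 3 each), so its group means spanned 23.2-fold outside Infinity. In the varieties where it was low, libraries of the same number stood out in both treatments. Library 2 of Infinity had 3.49 CPM waterlogged and 3.12 CPM in control, while the other 4 Infinity libraries had at most 0.533 CPM. The Infinity means thus reached the minimum of 1 CPM only through library 2, and without it the gene would not meet the rule. Library 1 of Passport had 8.17 CPM waterlogged and 7.95 CPM in control, against at most 1.88 CPM in the other Passport libraries, and library 2 of Regina had 10.6 CPM waterlogged and 10.0 CPM in control, against at most 1.32 CPM in the others. The deviations of waterlogged and control libraries of the same variety and number from their group means correlated at r = 0.958 for this gene over 15 pairs, a description that shares the experimental run and the variety within each pair. The same measure, chosen after these values were seen, had a median of 0.35 over the 44 genes and 0.28 over all 17173, and it exceeded 0.8 in 1 of the 44 genes and in 1.79% of all. In the chymotrypsin inhibitor gene, library 2 of Pilastro had 16.5 CPM waterlogged and 2.07 CPM in control, below the other 4 Pilastro libraries at 55.8 to 174 CPM. The part of the experimental run in these values was not tested, nor was whether each of these pools held plants of the labelled variety only.

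**Figure D3:**
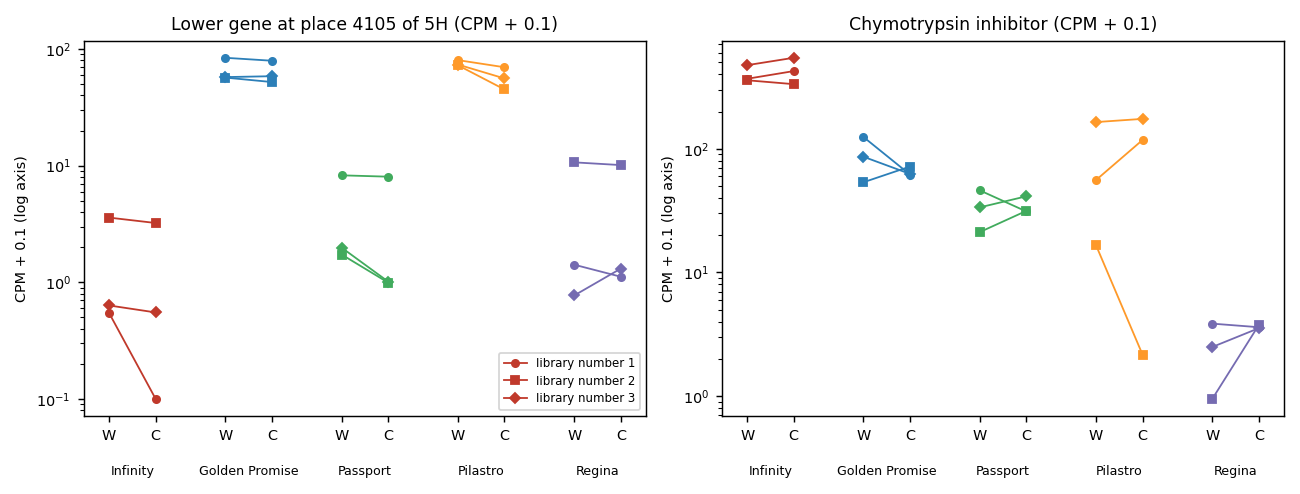
CPM plus 0.1 on a log axis for the lower gene at place 4105 of 5H (left) and the chymotrypsin inhibitor (right), with waterlogged (W) left of control (C) in each variety and a line joining libraries of the same number. On the left, library 2 of Infinity, library 1 of Passport and library 2 of Regina lie above the other libraries of their variety in both treatments, with Regina at 10.6 CPM waterlogged and 10.0 CPM in control.

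The 44 genes were spread over all 7 chromosomes, with 12 on 2H, 9 on 5H, 8 on 7H, 5 on 3H, 5 on 6H, 3 on 4H and 2 on 1H. Chromosome 2H thus held 27.3% of the members beside 16.7% of the genes at 1 CPM, and 1H held 4.55% beside 13.2%. In the order of listed genes, 24 of the 44 (54.5%) lay within the outer 10% at either end of a chromosome, where 16.6% of all genes at 1 CPM lay. Genes chosen by the same rule for the other varieties lay there in 42.3% to 57.1% of cases. Of the 44 genes, 12 (27.3%) had another member within 10 listed genes and 18 (40.9%) within 50, and for the other varieties the share within 10 ran from 21.1% to 38.5%. The share of close members to be expected for genes lying this near to chromosome ends was not computed. Genes within 10 places of a member that were not members themselves differed from the mean of the other groups by more than 1.5-fold in 13.5% of 327 cases, beside 7.71% of all genes. That last share includes the members, and the neighbours were not matched for nearness to a chromosome end.

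The longest run lay near the start of 2H, at places 181, 190, 193 and 194. It opened with the protein kinase gene, followed by 2 undescribed higher genes and a lower gene directly beside the last of them. Over the 24 libraries of the other varieties the levels of the higher genes at places 190 and 193 had r = -0.05, and those of the adjoining higher and lower genes at 193 and 194 had r = 0.12. The undescribed lower genes at places 224 and 225 of 5H, the second of which is HORVU.MOREX.r3.5HG0424720, varied together, with r = 0.87 over those 24 libraries. The higher genes at places 26 and 28 of 6H, the first of which is HORVU.MOREX.r3.6HG0538660, did so more closely, with r = 0.98, and both were highest outside Infinity in Golden Promise and lowest in Pilastro. At places 48 and 51 of 7H, HORVU.MOREX.r3.7HG0635050 and the 3-methyl-2-oxobutanoate hydroxymethyltransferase gene were both low in Infinity but ran against each other elsewhere (r = -0.52). The oxygenase gene at place 5449 of 5H was low in Infinity while the gene at place 5456 was high. These correlations are descriptions of log2(CPM + 0.5) over libraries that share varieties and treatments. How reads shared between near-identical genes were counted is not stated, so adjoining copies may not be separate measurements.

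**Figure D4:**
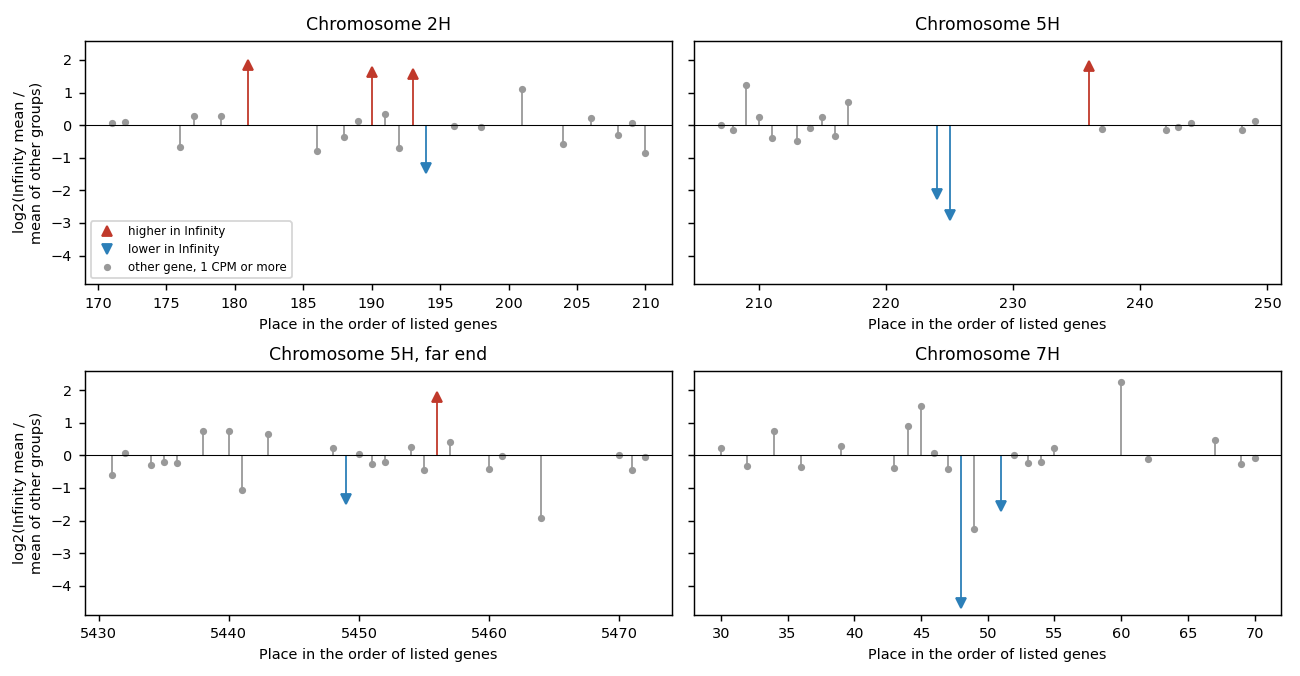
log2 of the mean of the 2 Infinity groups over the mean of the other 8 groups for each gene at 1 CPM or more, by place in the order of listed genes, in 4 windows on 2H, 5H, the far end of 5H and 7H; triangles are members and grey dots other genes. Higher and lower members stand side by side at places 193 and 194 of 2H, and the lower genes at places 224 and 225 of 5H adjoin.

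The response of these genes to waterlogging was tested in Infinity first. Of the 44, 2 passed an adjusted p of 0.05 in waterlogged against control Infinity roots (edgeR's quasi-likelihood test, Benjamini-Hochberg adjustment over 20576 genes), and both rose. That is 4.55% of the members, beside 3.92% of all genes tested, and as the rule favours genes with small responses nothing is read from these shares here or in the comparisons that follow. Phenylalanine ammonia-lyase rose by a log2 fold change of 2.61 (SE 0.71, adjusted p = 0.037 by edgeR), with all 3 waterlogged libraries above all 3 control libraries. The rise left the waterlogged Infinity mean, 18.7 CPM, below every group mean of the other varieties. The call was lost when any Infinity control library was left out (adjusted p up to 0.188 by edgeR) or when library 2 or 3 of waterlogged Infinity was, and without waterlogged library 3 the log2 fold change was 1.94. The Major facilitator superfamily gene rose by 1.15 (SE 0.32, adjusted p = 0.044 by edgeR), again with no overlap between treatments, although waterlogged library 3 at 30.3 CPM was barely above control library 1 at 30.1 CPM. Its call was lost without any control library or without waterlogged library 1 or 2 of Infinity, and the log2 fold change was 0.82 without waterlogged library 1. Leaving out any 1 of 9 libraries of the other varieties, which share the estimate of the spread, also took its adjusted p (edgeR) just past 0.05.

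The other named genes did not pass the threshold in Infinity. The protein kinase gene had a log2 fold change of 0.59 (SE 0.21, adjusted p = 0.119 by edgeR), the acidic endochitinase gene 0.08 (SE 0.25) and the chymotrypsin inhibitor gene -0.04 (SE 0.74). For the alcohol dehydrogenase gene it was -0.02 (SE 0.14, adjusted p = 0.968 by edgeR). In the same fit HvADH1, a known hypoxia marker of the same enzyme name, rose by 3.54 (adjusted p = 0.00075 by edgeR). The oxygenase gene had -0.15 (SE 0.17), the hydroxymethyltransferase gene 0.13 (SE 0.21) and HORVU.MOREX.r3.7HG0635050 -0.22 (SE 0.14). Over all 44 genes the absolute log2 fold change had a median of 0.14, beside 0.21 over all genes tested, a difference that the rule favours.

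**Figure D5:**
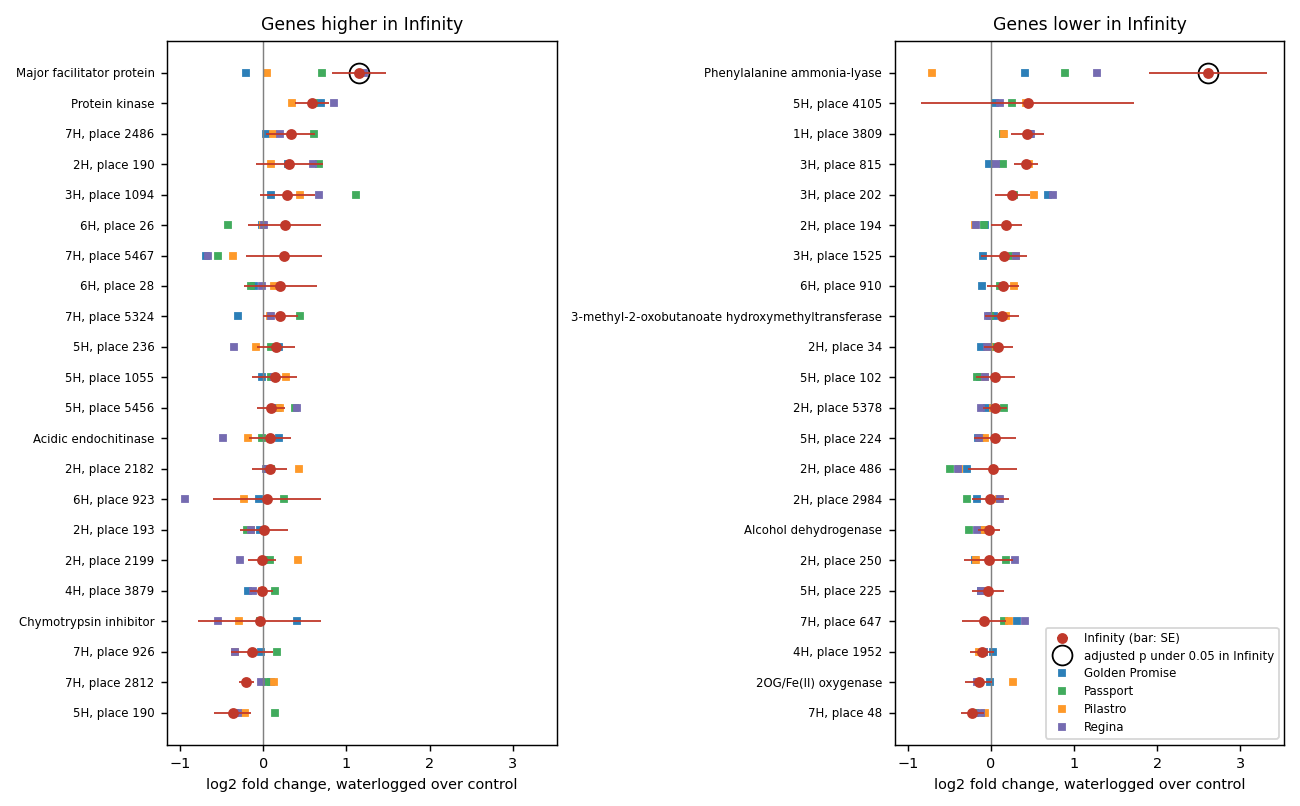
log2 fold change of waterlogged over control roots for the 22 genes higher (left) and the 22 genes lower (right) in Infinity, sorted by the Infinity value; red circles with SE bars are Infinity, squares the other 4 varieties, and a black ring marks an adjusted p under 0.05 in Infinity. Only the Major facilitator gene, at 1.15, and phenylalanine ammonia-lyase, at 2.61, carry a ring.

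The same test was made in each of the other varieties. In Regina 3 of the 44 were called (6.82%, beside 4.04% of all genes tested, both counted in either direction), and all 3 rose. They were the protein kinase gene (log2 fold change 0.85, SE 0.21, adjusted p = 0.018 by edgeR), the Major facilitator superfamily gene (1.22, SE 0.34, adjusted p = 0.044 by edgeR) and the undescribed lower gene at place 202 of 3H (0.75, SE 0.20, adjusted p = 0.036 by edgeR). In Regina the kinase gene had 248, 209 and 293 CPM waterlogged and 163, 115 and 153 CPM in control, without overlap. All 3 calls in Regina were lost without control library 2, without waterlogged library 1 or without waterlogged library 3. In Pilastro 1 gene was called, and it rose (beside 3.82% of all genes tested called in either direction). It was the undescribed lower gene at place 815 of 3H, at 0.45 (SE 0.13, adjusted p = 0.048 by edgeR). The call was lost under 31 of 36 alternatives, and DESeq2 called none. In Golden Promise edgeR called 0 of the 44 beside 0.442% of all genes, 3 had an unadjusted p under 0.05 (6.49% of all genes did), and DESeq2 called 0. In Passport edgeR called 0 beside 1.08% of all genes, 5 had an unadjusted p under 0.05 (13.6% of all genes did), and DESeq2 called 0. Library numbers paired the samples in Passport and Regina, and with the replicate block Passport had 1 call, the protein kinase gene (0.61, adjusted p = 0.048 by edgeR), and Regina 4, the added one being the undescribed lower gene at place 3809 of 1H (0.49, adjusted p = 0.034 by edgeR).

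Averaged over the 5 varieties, 10 of the 44 genes were called (22.7%, beside 27.1% of all genes tested). Of these, 8 rose (12.7% of all genes did) and 2 fell (14.4% of all genes did). With the replicate block 12 were called, the added ones being the undescribed higher genes at place 190 of 2H and place 2486 of 7H. That block treats library numbers as paired in all 5 varieties, although they were taken as paired only in Passport and Regina. The protein kinase gene rose by 0.62 (SE 0.09, adjusted p = 3.1e-05 by edgeR), with positive values in all 5 varieties between 0.34 in Pilastro and 0.85 in Regina. Phenylalanine ammonia-lyase rose by 0.90 (SE 0.28, adjusted p = 0.018 by edgeR), with positive values in 4 varieties and -0.71 (SE 0.59) in Pilastro. The Major facilitator superfamily gene rose by 0.58 (SE 0.15, adjusted p = 0.0060 by edgeR), with -0.21 (SE 0.35) in Golden Promise. Of the undescribed genes, those at place 202 of 3H (0.50), 1094 of 3H (0.52), 3809 of 1H (0.34), 5456 of 5H (0.25) and 815 of 3H (0.21) rose. HORVU.MOREX.r3.7HG0635050 fell by 0.16 on the log2 scale, a call lost under 19 of 35 alternatives, and the undescribed lower gene at place 486 of 2H fell by 0.31, a call lost under 29 of 35. The alcohol dehydrogenase gene did not pass the threshold, at -0.12 (SE 0.06, adjusted p = 0.121 by edgeR).

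Whether the response in Infinity differed from the mean response of the other 4 varieties was tested directly. edgeR called 0 of the 44 genes and 0% of all genes tested, 2 members had an unadjusted p under 0.05 (3.54% of all genes did), and DESeq2 called 0. Phenylalanine ammonia-lyase had the difference of 2.14 (SE 0.76, unadjusted p = 0.0098, adjusted p = 1 by edgeR), so its call in Infinity and not in single other varieties does not show a different response. The difference for the Major facilitator superfamily gene was 0.71 (SE 0.36, adjusted p = 1 by edgeR). These comparisons share the Infinity libraries with the test of Infinity alone.

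None of 14 hypoxia-related genes that the study's text names, among them HvADH1, HvPDC1 and the haemoglobin gene HvHB, was a member. The study named most of them from these same libraries, as shared responders or as part of a cluster that rose. Their rise here is therefore no separate support, and nothing is read from it. Of the 14, 13 were called in waterlogged against control Infinity roots and rose, beside 3.92% of all genes tested called in either direction. The minimum of 1 CPM in all 10 groups was met by 10 of the 14. The gene that was not called, RAP2.12, had a log2 fold change of 0.38 (adjusted p = 0.341 by edgeR). A gene that rises many-fold with waterlogging in every variety tends to fail the rule, so nothing is read from their absence. Among descriptions, 1 of 210 genes with kinase in the description and 1 of 96 with oxygenase were members. No member carried a description of the 13 other groups searched, which included disease resistance proteins (0 of 28), transcription factors (0 of 85), peroxidases (0 of 30) and transporters, aquaporins or permeases (0 of 189, with the Major facilitator gene not described by those words). With 8 described members of 3238 described genes at 1 CPM, these counts are small.

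The cutoff passed through a continuous range. The 3 higher genes just inside it had margins of 2.00, 2.02 and 2.03 and the 3 just outside 1.99, 1.97 and 1.97. The 3 lower genes just inside had 2.02, 2.02 and 2.04 and the 3 just outside 1.99, 1.99 and 1.98. Applied to the other varieties, the same rule chose 78 genes for Golden Promise, 38 for Passport, 21 for Regina and 13 for Pilastro. Lower genes outnumbered higher ones in each of these, with 42 against 36, 22 against 16, 16 against 5 and 10 against 3, while Infinity had 22 of each.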

How the data were processed

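Per the labels, total RNA was extracted from pooled barley roots; the study sequenced it as single-end short reads. According to the submitters' processing notes and the study's methods, reads were aligned to the Morex V3 genome with Bowtie2 2.4.5, converted with SAMtools 1.15.1 and assigned to genes with StringTie 2.1.7; trimming, strand and the handling of reads that match several genes are not given in the sources used here. The deposited table holds raw counts per gene, with no normalization by the authors. All varieties were aligned to the genome of one other variety, Morex, and the part of this in the levels was not tested.

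Levels are CPM on library totals. Waterlogging was tested on the counts with edgeR 4.0.16 (R 4.3.3; quasi-likelihood test, TMM scaling, filterByExpr, 10 group means, contrasts per variety, their mean, and Infinity against the mean of the other 4), with Benjamini-Hochberg adjustment over 20576 genes and a threshold of 0.05. All 30 libraries shared one estimate of the spread. SE is the absolute log2 fold change over the square root of the F value of the test, not a separately fitted error. It can look small beside the p-value in genes with few counts. The gene at place 815 of 3H had 0.42 in Infinity with SE 0.14 and an unadjusted p of 0.085 (edgeR). The test was tried on simulated data first. Alternatives were DESeq2 1.42.0, its size factors, other filters, a replicate block, single varieties, other margins and minimums, and each library left out. Figures were drawn with matplotlib 3.10.9 in Python 3.11.15.

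Same-numbered waterlogged and control libraries deviated together in all 3 pairs of Passport (r = 0.32 to 0.55) and Regina (r = 0.25 to 0.58), so that numbers were taken as paired there; in Infinity, Golden Promise and Pilastro at least 1 pair had r below 0. An exact permutation test of 3 against 3 libraries cannot give a two-sided p below 0.1, so none was used. The precision of each value rests on 3 libraries per group. The p-values set each difference against an estimate of the spread within groups that all 30 libraries share.

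Named genes were all described members, the 2 undescribed members with the largest margin in each direction, and described members in runs of neighbours; undescribed genes with a called response are given by their place. The members, the gene lists and these rules were chosen with earlier results of these data known. None of the 35826 identifiers matched the 58438 entries of the RefSeq gene table, so no coordinates or sequences are given.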

Additional observations from a re-analysis of the deposited data

Results flagged for a closer look

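In 1 member the waterlogged libraries lay on opposite sides of the control libraries in Infinity and in another variety. The undescribed higher gene at place 2812 of 7H had 46.5, 55.1 and 46.9 CPM in waterlogged and 58.4, 62.8 and 58.9 CPM in control Infinity roots, each waterlogged library below each control library, with a log2 fold change of -0.21. In Pilastro it had 21.4, 20.9 and 22.0 CPM waterlogged and 20.1, 19.3 and 20.0 CPM in control, each waterlogged library above each control library, with a log2 fold change of 0.13. Neither change passed the threshold, and the difference between these 2 varieties was not tested by itself. Against the mean response of all 4 other varieties the Infinity response of this gene had an unadjusted p of 0.017 and an adjusted p of 1 (edgeR). With 44 genes set against 4 varieties, 1 such pattern is given as a description.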

How the results depend on the processing

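The count of 22 higher and 22 lower genes depended on the margin and the minimum, as the rule makes it: a 1.5-fold margin gave 60 and 46, a 3-fold margin 2 and 6, a minimum of 5 CPM 10 and 13, no minimum 139 and 145, and 2-fold separation of every single library 1 and 8. Leaving out a library gave 19 to 23 higher and 19 to 23 lower genes. TMM scaling gave 23 and 19, of which 21 and 19 were among the 44.

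Of the Infinity calls, 1 was left with no filter beyond 1 count and 0 with the 6 Infinity libraries fitted alone, and fits of single varieties also gave 0 calls in Regina and 0 in Pilastro. Leaving out a library gave 0 to 2 Infinity calls. Pilastro had 0 calls with DESeq2, with its size factors, with no filter and with the replicate block, and 0 to 1 without a library. Passport had 1 call with the replicate block and 0 to 1 without a library, Regina 0 to 3, Golden Promise 0 to 0, the mean over varieties 8 to 10 (12 with the replicate block) and the difference 0 to 0. In Infinity, where numbers were not taken as paired, the replicate block gave 2 calls, the kinase in place of phenylalanine ammonia-lyase.

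Of 26 log2 fold changes followed, 6 changed sign, all in Infinity, near 0 and short of the threshold. For the alcohol dehydrogenase gene the value was 0.00665 with DESeq2 size factors, 0.0086 with at least 1 CPM in 3 libraries, 0.00545 with DESeq2 and 0.0158 in Infinity alone; for HORVU.MOREX.r3.5HG0424720 it was 0.0023 with at least 1 CPM in 3 libraries and 0.00702 alone. Leaving out a library gave -0.116 to 0.108 for the alcohol dehydrogenase gene, -0.255 to 0.21 for HORVU.MOREX.r3.5HG0424720, -0.209 to 0.147 for the chymotrypsin inhibitor, -0.192 to 0.32 for the endochitinase, -0.34 to 0.0236 for the oxygenase and -0.0521 to 0.401 for HORVU.MOREX.r3.6HG0538660.

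Depth limits the lowest members: the higher genes at place 190 of 2H and place 923 of 6H had as few as 5 counts in a library and the lower gene at place 4105 of 5H had 0 in 1 Infinity library. The cause of these shifts was not tested.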
